A study of Mus musculus with 24 samples.

Results

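Transcripts of 8 genes known from lung epithelium (Scgb1a1, Sftpc, Cyp2f2, Sftpb, Sftpa1, Slc34a2, Cldn18 and Cbr2) were followed in left ventricular RNA, out of 18820 genes measured. The 8 were selected because their values were higher in wildtype hearts after ischemia than in wildtype sham hearts, so that this difference is described below and no test of it is used as support. Each gene was read from 1 probe set that is paired with its symbol alone. The arrays were Affymetrix mouse gene arrays with 1 mouse per array, and they held 3 male mice in each of 8 groups. Wildtype mice, with the strain labelled BL6C57 and named C57BL6 in the study's methods, and Per2-/- mice, which lack the clock gene Per2 in the whole body, were 12 to 16 weeks old. The control hearts, called sham here, carry both the words untreated and sham operated in their labels. In the I30 groups the heart was made ischemic for 30 minutes and taken without reperfusion. In the IP0 groups it was preconditioned by 4 short cycles, each with 5 minutes without flow and 5 minutes with it. In the I30R60 groups flow returned for 60 minutes after an ischemia of 30 minutes. All mice were anesthetized, and all hearts were rinsed with cold saline before RNA was taken from the left ventricle.

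The airways of the lung are lined by club, ciliated and other cells, and the air sacs by flat type 1 cells and by type 2 cells, which make surfactant. Surfactant is a film of lipid and protein that keeps the air sacs open. Scgb1a1 encodes the main secreted protein of club cells, Cyp2f2 a cytochrome P450 of club cells, and Cbr2 a carbonyl reductase known from lung. Sftpc, Sftpb and Sftpa1 encode surfactant proteins C, B and A, Slc34a2 a phosphate transporter of type 2 cells, and Cldn18 a tight junction protein of the air sac lining. Heart muscle is not known as a main source of these transcripts, though Cbr2 had high values in every heart here.

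All values are log2 intensities after RMA normalization, and a difference of 1 is a 2-fold change. The median of all values was 4.44, and Cbr2 was the only one of the 8 genes with a mean above it. Cbr2 lay between 7.61 and 8.51 on the 24 arrays, sham hearts included, so the name lung epithelial transcript is less apt for it. Replicate hearts had a median SD of 0.172 over all genes. Tnni3, cardiac troponin I, lay between 13.05 and 13.28 on the 24 arrays, and Ttn, titin, between 11.72 and 11.97. Myl7, a light chain of atrial muscle, was above 5 on 4 arrays, wildtype sham replicates 1 and 2 and Per2-/- sham and IP0 replicate 3. The level of a transcript in such tissue RNA cannot tell fewer cells of a type from less RNA per cell.

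In wildtype hearts, the club cell transcript Scgb1a1 had log2 values of 2.53, 2.67 and 2.58 in the sham hearts. In the I30 hearts it had values of 7.26, 5.22 and 4.45. The groups did not overlap, and the I30 hearts were also far apart from each other. The mean was 2.59 ± 0.07 in sham and 5.64 ± 1.45 in I30 hearts (SD, n = 3 each), a difference of 3.05. This was the largest positive difference of the 18820 genes. Cyp2f2 had values of 3.09, 3.03 and 3.26 in sham and of 5.36, 4.15 and 3.87 in I30 hearts. Its difference of 1.33 ranked 7 of all genes. Cbr2 had values of 7.95, 7.78 and 7.99 in sham hearts and of 8.51, 8.33 and 8.03 in I30 hearts, and its difference was 0.38. The lowest I30 heart was barely above the highest sham heart for Cbr2, which ranked 1267.

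The surfactant transcript Sftpc had log2 values of 2.76, 2.82 and 2.67 in the wildtype sham hearts. In the I30 hearts the values were 6.72, 5.49 and 4.22, with a mean of 5.48 ± 1.25 against 2.75 ± 0.08 (SD, n = 3 each). Its difference of 2.73 ranked 2 of all genes. All 3 of these I30 hearts were above each of the 21 other arrays, as was the case for Cyp2f2, whereas Scgb1a1 reached 4.82 in a Per2-/- I30 heart. Sftpb had values of 2.80, 2.95 and 3.20 in sham and of 4.12, 4.14 and 3.36 in I30 hearts. Sftpa1 had values of 3.27, 3.53 and 3.46 in sham and of 4.92, 4.01 and 3.75 in I30 hearts. The differences were 0.89 for Sftpb and 0.81 for Sftpa1, at ranks 51 and 61. For both genes the 2 higher I30 hearts were above all 21 arrays of the other groups and the lowest was not.

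Surfactant and club cell genes are known targets of the lung transcription factors Nkx2-1 and Foxa. The RefSeq promoter table (build GRCm38.p6) held 6 of the 8 genes, and Scgb1a1 and Sftpc were not matched. The 250 bases before the start were searched on both strands for CTCAAG, the core of the Nkx2-1 motif, and for TGTTTNC, the core of the Foxa motif. Sftpb, Sftpa1 and Cyp2f2 are shown as the members with the largest differences among those matched. All 3 lie on the plus strand, and capitals mark the matches on either strand:
Sftpb chr6:72304360-72304609: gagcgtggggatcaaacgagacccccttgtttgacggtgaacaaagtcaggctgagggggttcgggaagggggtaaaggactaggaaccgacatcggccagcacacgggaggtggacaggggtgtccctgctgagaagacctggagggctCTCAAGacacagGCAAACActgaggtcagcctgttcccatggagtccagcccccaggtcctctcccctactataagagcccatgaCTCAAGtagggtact
Sftpa1 chr14:41131538-41131787: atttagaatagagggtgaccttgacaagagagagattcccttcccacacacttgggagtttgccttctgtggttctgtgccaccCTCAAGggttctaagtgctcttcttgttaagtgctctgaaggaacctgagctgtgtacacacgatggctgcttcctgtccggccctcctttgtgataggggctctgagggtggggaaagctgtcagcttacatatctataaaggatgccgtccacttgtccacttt
Cyp2f2 chr7:27119705-27119954: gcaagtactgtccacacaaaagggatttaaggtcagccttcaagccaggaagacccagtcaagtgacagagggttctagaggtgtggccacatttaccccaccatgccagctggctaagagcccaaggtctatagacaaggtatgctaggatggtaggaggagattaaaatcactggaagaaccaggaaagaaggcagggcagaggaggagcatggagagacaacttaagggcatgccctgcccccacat
The Sftpb sequence held 2 Nkx2-1 cores and 1 Foxa core, which do not overlap, and the Sftpa1 sequence held 1 Nkx2-1 core. The Nkx2-1 core was found in 2 of the 6 genes, and in 13.3% of all 32851 promoter windows of this length. The Foxa core was found in 3 of the 6 genes (Sftpb, Cbr2 and Cldn18), and in 17.8% of all windows. Cldn18 had 2 windows, each with 2 Foxa cores. A match is a description of the letters and not a binding site.

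Slc34a2 had log2 values of 2.18, 2.25 and 2.19 in wildtype sham hearts and of 3.62, 2.52 and 2.29 in I30 hearts. The difference of 0.60 came mainly from replicate 1, the 1 heart of the 3 that was above all 21 other arrays. Cldn18 had values of 2.77, 2.86 and 3.05 in sham and of 3.77, 3.62 and 3.04 in I30 hearts. Its lowest I30 heart was below its highest sham heart, so that 7 of the 8 genes did not overlap between the groups, against 11.9% of all genes tested with every I30 heart higher. At an adjusted p under 0.05 in limma, 5 of the 8 genes passed, against 1.2% of all genes tested called higher. The 8 genes were chosen from this contrast, and nothing is read from these counts. The count was 2 without sham replicate 1 (Scgb1a1 and Sftpc) and 3 without sham replicate 2 or without I30 replicate 1 (Scgb1a1, Sftpc and Cyp2f2 each time), and it was 0 in a model of the arrays of these 2 groups alone. It was also 0 without the arrays with high Myl7, which leaves 1 wildtype sham heart.

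**Figure D1:**
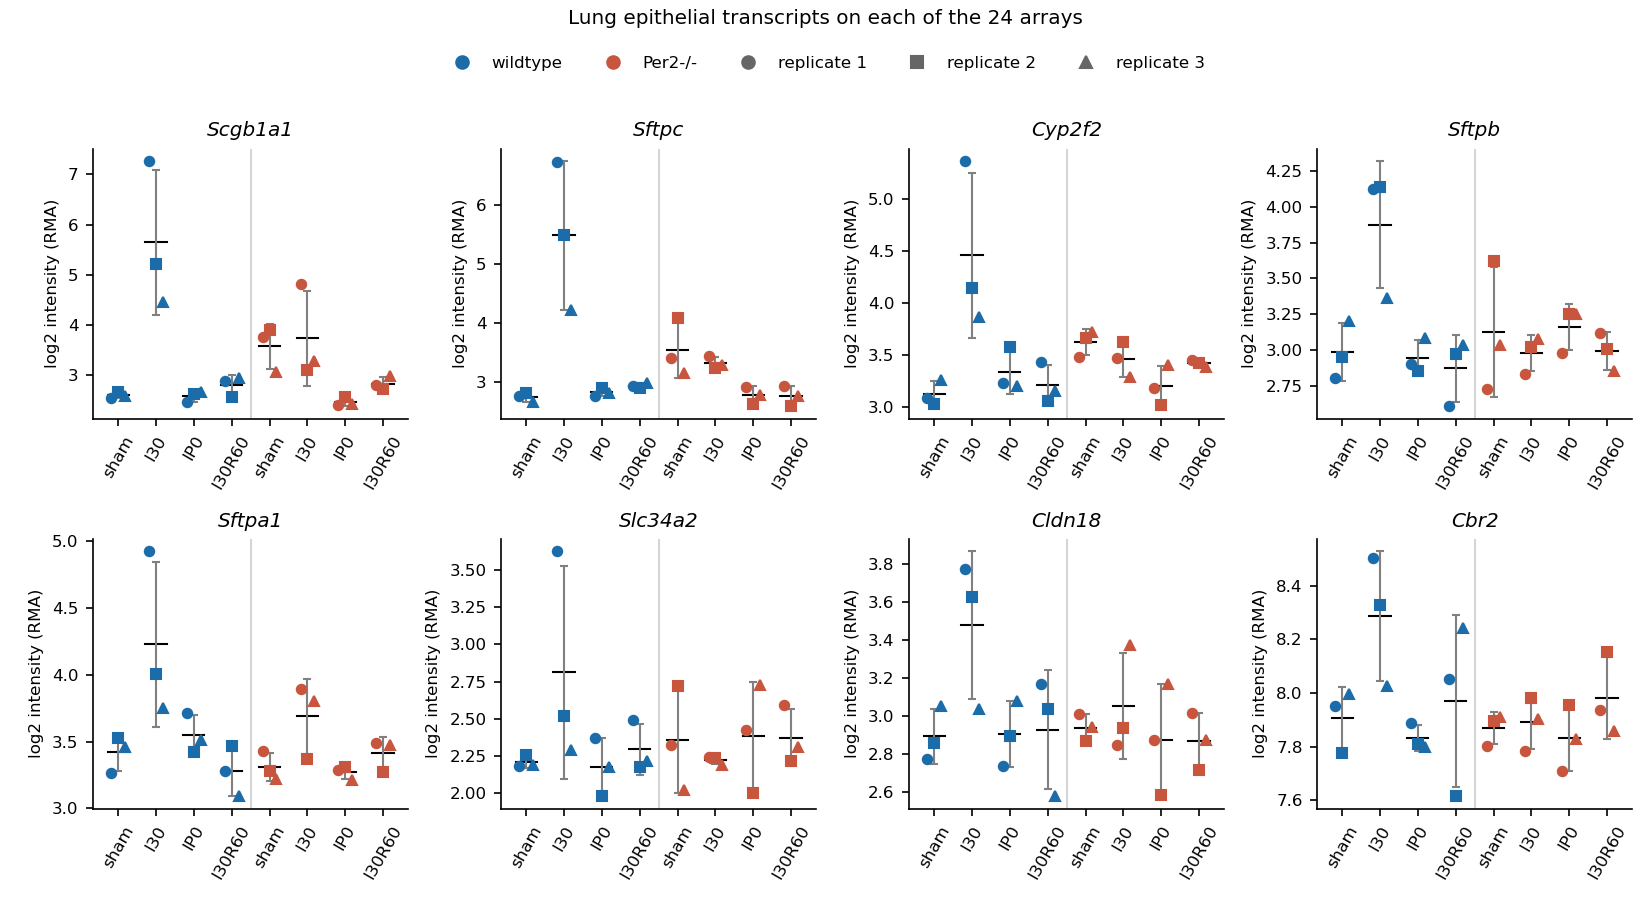
Log2 intensity of the 8 lung epithelial transcripts on each of the 24 arrays, by treatment, with wildtype hearts in blue and Per2-/- hearts in red. Symbols give the replicate, horizontal lines the group mean and bars the SD (n = 3), and each panel has its own axis, which does not start at 0. The wildtype I30 hearts are highest in most panels, up to 7.26 for Scgb1a1, with replicate 3 lowest of the 3.

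The 3 wildtype I30 hearts kept nearly the same order in all 8 genes. Replicate 1 had the highest value for 7 of the 8 genes, the exception being Sftpb with 4.12 in replicate 1 and 4.14 in replicate 2. Replicate 3 had the lowest value for all 8. Against the mean of the sham hearts, Scgb1a1 was higher by 4.67, 2.62 and 1.86 in replicates 1, 2 and 3. Sftpc was higher by 3.97, 2.75 and 1.47 in the same order. Replicate 1 held between 42.5% (Sftpb) and 78.3% (Slc34a2) of the summed difference of the 3 hearts. The mean over the 8 genes was 5.54, 4.69 and 4.13 in the I30 hearts and 3.42 to 3.55 in the sham hearts. The mean difference over the 8 genes was 1.30, and it was 0.92 without I30 replicate 1 and 1.63 without I30 replicate 3.

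**Figure D2:**
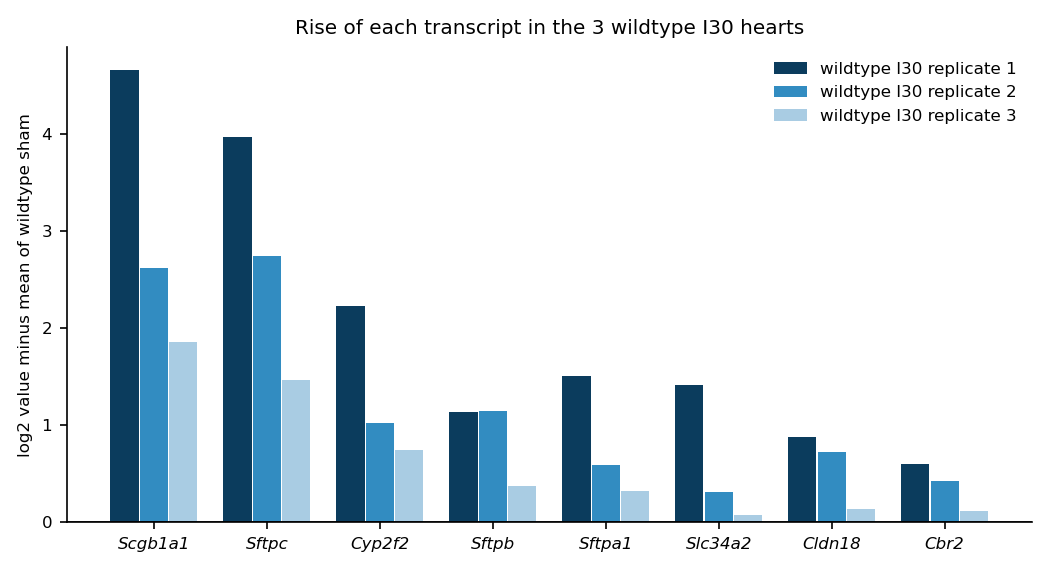
Log2 value of each of the 8 transcripts in each of the 3 wildtype I30 hearts, minus the mean of the 3 wildtype sham hearts. Bars from dark to light are replicates 1, 2 and 3, and replicate 3 has the shortest bar for every gene, from 0.08 for Slc34a2 to 1.86 for Scgb1a1.

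Other genes of lung epithelium were set beside the 8, whose larger differences the selection itself favours. The lists of these other genes leave out the 8 and were chosen with earlier results of these data known. Their contrast with the 8 is thus partly built in. Of the listed genes, 15 had a mean above the median of all values. Of 45 measured genes on 4 lists (type 2, type 1, club and ciliated cells), none was called higher by limma (7 were higher at an unadjusted p under 0.05, and the test named in the study's methods called none after adjustment). Their median difference was 0.06, against 0.01 over all genes, 28 of the 45 were positive, and the largest were Gsta3 with 0.73, Gprc5a with 0.64 and Tekt1 with 0.62, above the 3 smallest differences of the 8 genes. Every I30 heart was higher for 9 of the 45 and lower for 4, against 2234 and 2408 of all 18820 genes. Sftpd, surfactant protein D, had values of 2.29, 2.14 and 2.22 in sham and of 2.50, 2.53 and 2.57 in I30 hearts. Lamp3, a lysosomal protein of type 2 cells, differed by 0.27 and Abca3, the lipid transporter of type 2 cells, by -0.08. Ager, a defining transcript of type 1 cells, had values of 4.17, 4.01 and 4.12 in sham and of 4.32, 4.03 and 3.82 in I30 hearts. For Ager and Abca3 the I30 and sham hearts overlapped.

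Replicate 1 was the highest I30 heart for some of the other genes as well. Gsta3, a glutathione transferase on the club cell list, had values of 5.51, 5.20 and 5.31 in wildtype sham hearts and of 6.78, 5.90 and 5.54 in I30 hearts. Tekt1, a protein of cilia, had values of 2.93, 2.83 and 3.03 in sham hearts and of 3.95, 3.26 and 3.43 in I30 hearts. Chil3, a chitinase-like protein of alveolar macrophages, had a value of 3.93 in I30 replicate 1, but 2.37 and 2.66 in the others and 2.39 to 2.57 in sham hearts. The transcription factor Nkx2-1 had values of 2.50, 2.46 and 2.76 in sham and of 2.86, 2.89 and 2.83 in I30 hearts, which lay close together. Its Per2-/- I30 hearts were also all higher, with 2.89, 2.90 and 2.99 against 2.76, 2.76 and 2.79 in sham hearts. In wildtype hearts, 9811 of all 18820 genes had a positive difference. Of 13 genes of general epithelium, 11 differences were positive there, with a median of 0.25 and none called. Among them Cdh1, which encodes E-cadherin, had values of 3.63, 3.04 and 3.03 in I30 hearts and 2.78 to 2.97 in sham hearts. Of 8 lung transcription factors, 7 differences were positive, with a median of 0.18, but none was called higher. Every I30 heart was higher for 4 of these 8, against 11.9% of all genes tested. In Per2-/- hearts this held for 3 of these 8, against 1013 of all 18820 genes. In wildtype hearts Sox9, which is also known from heart valves, was called lower, with a difference of -0.85. There 1.18% of all genes tested were called lower. Of 8 genes of lung mesenchyme and capillaries, 3 were positive and the median was -0.05. Of 8 alveolar macrophage genes, 7 were positive, with a median of 0.19 and none called. Of 9 genes of the tracheal mucosa, 8 were positive, with a median of 0.33, and Ltf, lactoferrin, was called higher with a difference of 0.51 (Ltf is named after its values were seen). All 7 thymus genes were positive, with a median of 0.26 and none called. These counts are of values before quantile normalization, and the wildtype I30 arrays had a narrower spread of values than the sham arrays. The part of that spread, or of the listed tissues, in the result was not tested.

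**Figure D3:**
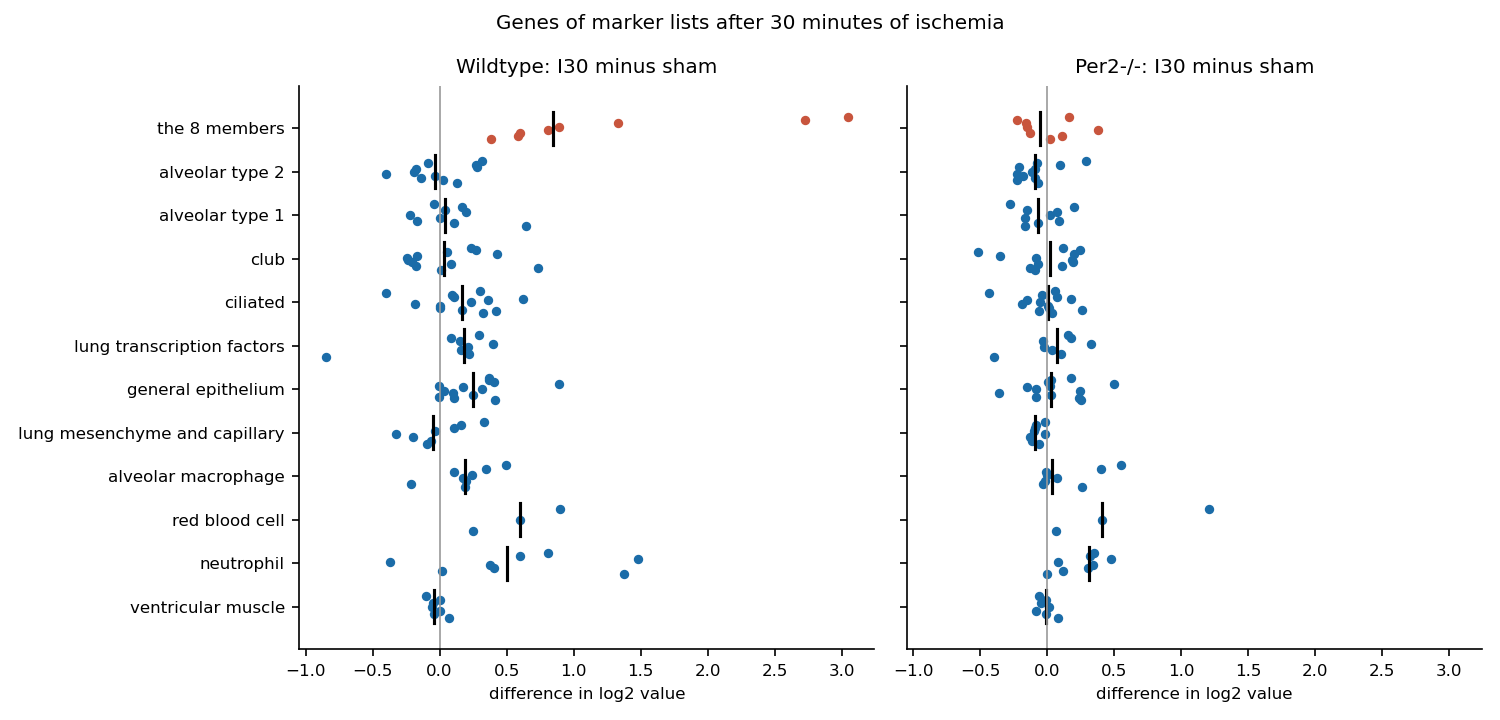
Difference in log2 value between I30 and sham hearts for the genes of 12 lists, in wildtype (left) and Per2-/- hearts (right). Each point is 1 gene, the 8 selected genes are in red, and black lines are medians. The selected genes lie between 0.38 and 3.05 in wildtype hearts and between -0.22 and 0.38 in Per2-/- hearts. In wildtype hearts the red cell and neutrophil lists have medians of 0.60 and 0.50. The remaining lists there have medians from -0.05 to 0.25.

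The mean values of blood cell transcripts were also higher in the wildtype I30 hearts. Retnlg, a secreted protein of neutrophils, had values of 4.44, 4.78 and 4.11 in sham and of 7.22, 5.87 and 4.67 in I30 hearts. Ngp, also on the neutrophil list, had values of 5.56, 2.43 and 2.52 in I30 hearts and of 1.97 to 2.26 in sham hearts. It was thus highest in I30 replicate 1, as was Chil3. The mean of 8 neutrophil genes was 5.30, 4.22 and 4.07 in the I30 hearts and 3.90 to 4.00 in the sham hearts, so that these hearts had the same order as for the lung transcripts. The mean of 3 red cell genes was 4.69, 4.32 and 4.26 in I30 hearts and 3.81 to 3.86 in sham hearts, again in that order. None of these 11 genes was called. Every I30 heart was higher for 2 of the 8 neutrophil genes and 2 of the 3 red cell genes, against 11.9% of all genes tested. Csf3r, a receptor of neutrophils, had every I30 heart lower, with 4.19, 3.96 and 4.31 against 4.35, 4.61 and 4.63. Neutrophil means of 4.27 to 5.16 were also seen in wildtype I30R60 hearts, where the mean of the 8 lung transcripts was 3.47 to 3.60. Red cell means of 4.31 to 4.68 were seen in Per2-/- I30 hearts, where the lung mean was 3.69 to 3.92. The interquartile range over all probe sets was 3.76 to 3.87 on the wildtype I30 arrays and 4.01 to 4.11 on the sham arrays. It was lowest in I30 replicate 3, the heart with the least lung transcript. Quantile normalization, which gives all arrays 1 distribution, left differences of 3.03 for Scgb1a1, 2.71 for Sftpc and 1.30 for Cyp2f2. Those of Sftpb and Sftpa1 were 0.80 and 0.76, and both genes lost their calls. Those of Slc34a2, Cldn18 and Cbr2 were 0.49, 0.46 and 0.42. The part of lung tissue, of blood, or of transcripts made by the heart in the higher values was not tested.

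**Figure D4:**
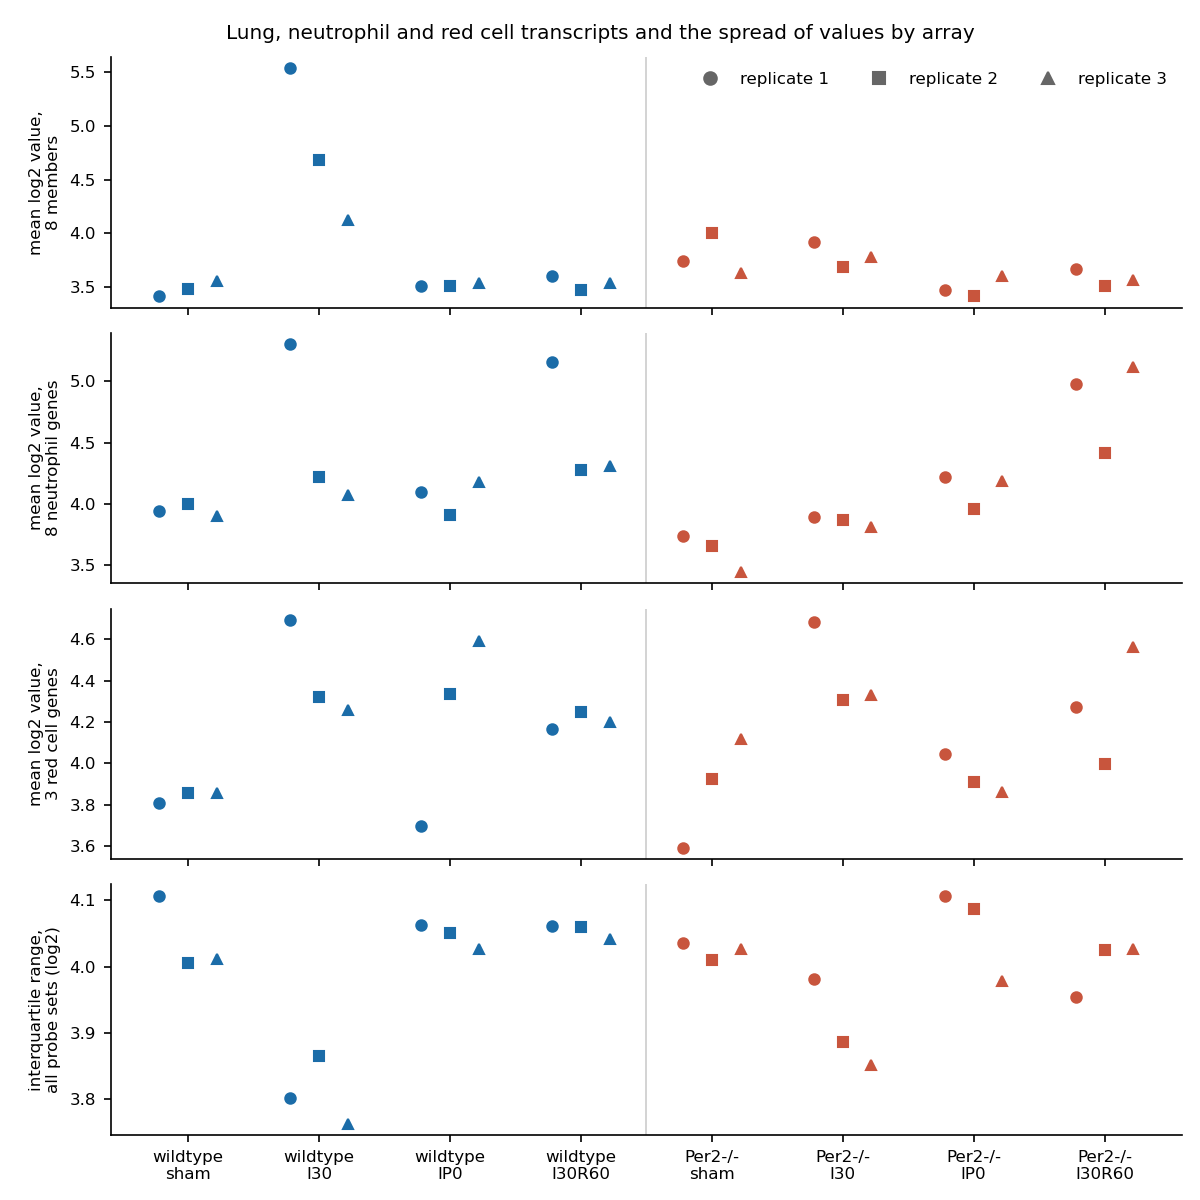
Values for each of the 24 arrays by group, as the mean log2 value of the 8 lung epithelial, 8 neutrophil and 3 red cell genes and the interquartile range of all probe sets. Symbols give the replicate and colours the genotype (wildtype blue, Per2-/- red), and the axes do not start at 0. Lung transcripts stand highest in the wildtype I30 hearts, at 4.13 to 5.54, and neutrophil means above 4.9 also occur in I30R60 hearts of both genotypes.

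In Per2-/- hearts, I30 and sham hearts overlapped for all 8 genes. Scgb1a1 had log2 values of 3.76, 3.90 and 3.06 in the sham and of 4.82, 3.10 and 3.28 in the I30 hearts. The difference was 0.16 (SE 0.47, limma adjusted p = 0.963), with a 95% interval from -0.83 to 1.15. It ranged from -0.38 (without I30 replicate 1) to 0.48 (without I30 replicate 2) with 1 Per2-/- array left out, was -0.10 without the arrays with high Myl7, and was called in none of these cases. Sftpc had values of 3.42, 4.09 and 3.15 in the sham and of 3.44, 3.24 and 3.30 in the I30 hearts. Its difference was -0.22 (SE 0.36, limma adjusted p = 0.923), with a 95% interval from -0.98 to 0.53. The SEs and intervals of both genes, here and below, include the wide spread of the wildtype I30 hearts. Cyp2f2 differed by -0.16 and Sftpa1 by 0.38, with adjusted p values of 0.918 and 0.743 in limma. None of the 8 genes was called in this contrast, nor was any at an unadjusted p under 0.05 by limma or by the methods' test. In limma 0% of all genes tested were called in either direction (1343 had an unadjusted p under 0.05, and the methods' test called none after adjustment). None of the 45 other lung epithelial genes was called (4 at an unadjusted p under 0.05). Whether the genotypes differ in this response is not tested here, because the wildtype contrast chose the genes.

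The Per2-/- sham hearts themselves had higher Scgb1a1, Sftpc and Cyp2f2 values than the wildtype sham hearts. The 3 values of 3.06 to 3.90 for Scgb1a1 and of 3.15 to 4.09 for Sftpc were all above the highest wildtype sham heart, at 2.67 and 2.82. For Cyp2f2 the values of 3.48 to 3.72 were all above 3.26. This was seen after looking at the values and is given without a test or the share of all genes. The wildtype sham hearts are also part of the contrast that chose the genes, which favours low values there. For Scgb1a1 and Sftpc, replicate 2 was highest and replicate 3 lowest among the Per2-/- sham hearts. Sftpb (2.73, 3.62 and 3.03) and Slc34a2 (2.32, 2.72 and 2.02) were also highest in replicate 2. Cyp2f2 (3.48, 3.66 and 3.72) and Cbr2 (7.80, 7.89 and 7.91) were highest in replicate 3, the heart with a Myl7 value of 11.21, and Sftpa1 (3.43, 3.28 and 3.22) and Cldn18 (3.01, 2.87 and 2.94) in replicate 1. The 8 genes thus had no common order in these hearts.

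After IP0, the Per2-/- hearts had Scgb1a1 values of 2.39, 2.55 and 2.42. These values were below every Per2-/- sham heart, and the difference of -1.12 (SE 0.47) was the most negative of the 18820 genes, but it did not pass the test (limma adjusted p = 0.521). Sftpc had values of 2.93, 2.63 and 2.79, and its difference of -0.77 (SE 0.36) did not pass either (limma adjusted p = 0.596). Cyp2f2, with 3.18, 3.02 and 3.40, had a difference of -0.42 (limma adjusted p = 0.691). These 3 genes were the members with every IP0 heart lower, against 8.13% of all genes tested. None of the 8 was called (0.117% of all genes tested were called higher and 0.0425% lower, and 2 members had an unadjusted p under 0.05 in limma and 2 in the methods' test). The other 5 differences lay between -0.06 and 0.03. Without the arrays with high Myl7 the Scgb1a1 difference was -1.36 and the Sftpc difference -0.97, with adjusted p values of 0.774 and 0.792 in limma.

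After I30R60, the Per2-/- hearts had Scgb1a1 values of 2.79, 2.71 and 2.97 and Sftpc values of 2.94, 2.59 and 2.77. Both genes were again lower in every heart than in the sham hearts, which are the same 3 arrays as in the other Per2-/- comparisons. The differences were -0.75 (SE 0.47, limma adjusted p = 0.448) for Scgb1a1 and -0.79 (SE 0.36, limma adjusted p = 0.257) for Sftpc. Without the arrays with high Myl7 they were -1.01 and -0.99, with adjusted p values of 0.445 and 0.293 in limma. With Cyp2f2 at -0.20, 3 of the 8 genes had every I30R60 heart lower, against 14.7% of all genes tested. None of the 8 was called, where 2.78% of all genes were called higher and 2% lower, and 1 member (Sftpc) had an unadjusted p under 0.05 in limma and none in the methods' test. Of the other lung epithelial genes, 3 were called higher. Gprc5a, a receptor of type 1 cells, rose by 1.82 (SE 0.31, limma adjusted p = 0.00106), Scgb3a1, a secretoglobin of the airways, by 0.71 (SE 0.16, limma adjusted p = 0.0103) and Pdpn, podoplanin, by 0.62 (SE 0.16, limma adjusted p = 0.0298). Gprc5a had values of 7.09, 6.13 and 6.63 in these hearts and of 5.02, 5.00 and 4.37 in sham hearts. Without Per2-/- sham replicate 1, 1 of the 3 was called. Gprc5a was also higher in wildtype hearts, with 6.43, 6.05 and 5.88 after I30R60 and 4.00, 4.87 and 4.13 in sham hearts. Pdpn had wildtype values of 6.08, 5.76 and 5.88 after I30R60 and of 5.49, 5.17 and 5.52 in sham hearts. For Scgb3a1 these wildtype groups overlapped. This wildtype comparison was not tested.

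Over the 12 Per2-/- hearts, Scgb1a1 lay between 3.06 and 4.82 in the 6 sham and I30 hearts, which had no reperfusion, and between 2.39 and 2.97 in the 6 IP0 and I30R60 hearts. Sftpc lay between 3.15 and 4.09 in the first 6 and between 2.59 and 2.94 in the other 6. All 6 hearts without reperfusion were above all 6 with reperfusion for these 2 of the 8 genes, against 0.643% of all genes tested. The other 6 genes overlapped. This division was seen in the data and carries no test. In wildtype hearts the sham hearts, which also had no reperfusion, were as low as the hearts with reperfusion.

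In the wildtype hearts with reperfusion, all 8 genes were near the values of wildtype sham hearts. Scgb1a1 had values of 2.45, 2.62 and 2.65 after IP0 and of 2.87, 2.56 and 2.94 after I30R60. The difference was 0.22 (SE 0.47, limma adjusted p = 0.908). This SE uses 1 spread shared by all 8 groups, including the wildtype I30 hearts with an SD of 1.45. The SDs of the IP0 and I30R60 hearts themselves were 0.11 and 0.20. Sftpc had values of 2.77, 2.91 and 2.82 after IP0 and of 2.93, 2.90 and 2.99 after I30R60, a difference of 0.11 (SE 0.36, limma adjusted p = 0.945). The other 6 differences lay between -0.27 and 0.14, and the groups overlapped for all 8 genes. None of the 8 was called (0.919% of all genes were called higher and 0.324% lower) or had an unadjusted p under 0.05 in limma or in the methods' test. Of the 45 other lung epithelial genes, Muc1, a mucin of epithelial surfaces, was called higher after I30R60 by 0.59 (SE 0.14, limma adjusted p = 0.0448). The call of Muc1 was lost with arrays centred on their medians, with the 2 groups alone, with array weights, with a replicate block and without the arrays with high Myl7. It was also lost in the adjusted methods' test and without IP0 replicate 1 or I30R60 replicate 1 or 3.

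Across the 24 arrays, the 8 genes correlated with their own mean at Pearson's r of 0.70 (Cbr2) to 0.99 (Sftpc), and the median r between pairs of them was 0.70. The wildtype I30 hearts, which chose the genes, carry much of this. Over the 18 arrays outside the wildtype sham and I30 groups, r with the mean was 0.91 for Sftpc, 0.87 for Scgb1a1 and 0.60 for Cyp2f2, and between -0.05 and 0.40 for the other 5 genes. The median r between pairs was 0.09 there. The genes outside the 8 whose values were most like their mean over 24 arrays were Ccdc83 (r = 0.86), Ctsr (0.86), Naaladl1 (0.85), Gys2 (0.85) and Cxcl15 (0.84). Cxcl15, a chemokine known as lungkine for its expression in lung, had values of 3.84, 2.50 and 2.68 in the wildtype I30 hearts and of 2.22, 2.28 and 2.27 in the sham hearts. It is on none of the lung lists, and its difference was 0.75. Over the 18 arrays the most alike were Olfr1095 (r = 0.83) and Slco6c1, and none of the first 10 genes there was among the first 10 over 24 arrays. These arrays share groups and 1 normalization, and the correlations are a description.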

How the data were processed

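Total RNA of 24 left ventricles was measured, 1 mouse per array. For 35555 probe sets, the authors deposited log2 intensities that had been normalized by RMA in Partek Genomics Suite. RMA works over all arrays together and compresses differences at low intensity, which can make the difference of a dim gene appear smaller. The files carry no detection calls, so it is not known which low values are above background, and the number of arrays limits the precision. Probe sets paired with 1 gene symbol (21218) were used, and those with several symbols (1881) or not listed (12456) were left out. For 1386 genes with several probe sets the one with the highest mean was taken, which left 18820 genes.

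Tests were made with limma 3.58.1 (R 4.3.3). The model had 1 mean for each of the 8 groups and used all 24 arrays with 16 residual degrees of freedom. P-values were adjusted by Benjamini-Hochberg over all genes. Each gene had 1 spread for all comparisons, which includes the wildtype I30 hearts. Those hearts had SDs of 1.45 for Scgb1a1 and 1.25 for Sftpc, which enter the SEs of both genes in every comparison. A gene was called at an adjusted p under 0.05. The wildtype I30 contrast, which chose the genes, is given without p-values, as values and counts of calls. The code was tested on simulated data. Nothing in the labels says that replicates shared a litter or day. Samples were grouped by their titles, and no array was left out of the main comparisons.

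The 8 genes and the 18 lists of 160 genes (150 measured) were chosen with earlier results of these data known. Named genes are the 8, genes of the lung lists, the first 4 of each other list, the 20 with the largest wildtype I30 difference and the 10 most correlated with the mean of the 8. Promoter sequences came from RefSeq. Alternatives covered scaling, quantile normalization, dim genes, the choice of probe set, the arrays in the model, limma's options, array weights and a replicate block. They also covered each array left out and Student's t test (unadjusted and adjusted), which the study's methods name for the data in general. Leaving out the arrays with high Myl7 was added after seeing the data. Figures used Python 3.11.15, pandas 2.3.3, numpy 2.4.6 and matplotlib 3.10.9. A pathway analysis was not repeated.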

Additional observations from a re-analysis of the deposited data

Results flagged for a closer look

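In 6 pairings of a gene with a treatment, all 3 wildtype hearts of that treatment were above the mean of the wildtype sham hearts and all 3 Per2-/- hearts below the mean of the Per2-/- sham hearts. Sftpc showed this after each of the 3 treatments, and Cyp2f2, Sftpb and Slc34a2 after 1 treatment each. The difference between the genotypes was not tested, and those after I30 rest on the wildtype contrast that chose the genes. Those after IP0 and I30R60 are not free of that choice either. They use the wildtype sham hearts of the same contrast, and the choice of genes favours low values there. The share of all genes that meet this rule is not given, and nothing is read from the count. For Sftpc, the log2 change in Per2-/- minus that in wildtype hearts was -2.95 after I30, -0.85 after IP0 and -0.98 after I30R60. All 3 of these use the same sham hearts. For Cyp2f2 it was -0.63 after IP0, for Sftpb -1.04 after I30 and for Slc34a2 -0.73 after I30. The mean of Sftpc was 2.75 in wildtype and 3.55 in Per2-/- sham hearts. It was 2.83 and 2.78 after IP0, and 2.94 and 2.77 after I30R60. For Sftpc the differences after IP0 and I30R60 thus come mainly from the sham hearts.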

How the results depend on the processing

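The arrays number 3 in each group and carry no detection calls, so a small difference of a dim gene cannot be told from background, and 7 of the 8 lung transcripts have means below the median of all values. The following alternatives changed counts, and the cause was not tested unless the construction shows it. No member was called in any Per2-/- contrast or in wildtype I30R60 against IP0 under any adjusted setting that was run. The mean difference of the members kept its direction in 3 comparisons, and it lay between -0.08 and 0.11 in Per2-/- I30 against sham hearts and between -0.03 and 0.05 in wildtype I30R60 against IP0.

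In wildtype I30 against sham hearts, where the 8 genes were chosen, 449 genes and 5 members were called. Quantile normalization gave 104 genes and 3 members, the 2 groups alone 9 genes and 0 members, and the methods' test after adjustment 0 and 0. Without the 4 arrays with high Myl7, which leaves 1 wildtype sham heart assumed to vary like the other groups, 3 genes and 0 members were called. Among genes with a mean above the median of all values 0 members were called, since the filter kept 1 member. The methods' test without adjustment gave 2760 genes, and 5 other lung epithelial genes higher against 0. Leaving out 1 array gave 38 to 382 genes, 2 to 6 members, 0 to 1 other lung genes and a mean difference of 0.92 to 1.63.

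In Per2-/- I30 against sham hearts (0 genes), the unadjusted methods' test gave 1250 genes and 1 other lung gene, and leaving out 1 array gave 0 to 2 genes. In Per2-/- IP0 against sham hearts (30 genes), counts were 1 with the 2 groups alone, 51 with trend and robust options, 49 with array weights, 8 without the arrays with high Myl7, 0 in the adjusted and 1487 in the unadjusted methods' test, where 2 members were lower, and 10 to 26 with 1 array left out. In Per2-/- I30R60 against sham hearts (901 genes, 3 other lung genes), counts were 310 with the 2 groups alone, 470 without the arrays with high Myl7, 2593 in the unadjusted and 3 in the adjusted methods' test, where 0 other lung genes were called. With 1 array left out they were 475 to 758 genes and 1 to 4 other lung genes.

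In wildtype I30R60 against IP0 hearts (234 genes, 1 other lung gene), counts were 406 among brighter genes, 5 with the 2 groups alone, 366 with trend and robust options, 1934 in the unadjusted and 0 in the adjusted methods' test, and 60 to 218 with 1 array left out. The other lung gene, Muc1, was lost (0) with arrays centred on their medians, the 2 groups alone, array weights, a replicate block, the adjusted methods' test and without the arrays with high Myl7, 3 were called in the unadjusted methods' test, and 0 to 1 with 1 array left out.

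Replicate numbers were not taken as pairs, since the labels name no shared animal, litter or day and the check was not met. After group means were subtracted, the average correlation was 0.0203 for arrays that share a number and -0.0101 for the rest. In 1 of 28 pairs of groups every such correlation was over 0.1. For 19 of the 24 arrays the closest array of another group had the same number, where each group holds 1 such array of 3. Arrays with the same number were thus often alike, and what they share was not tested. With the replicate block, 421, 0, 23, 857 and 211 genes were called in the 5 comparisons, 5 members in the first and 0 in the others, and 3 and 0 other lung genes in the last 2.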
